A study of Mus musculus with 47 samples.

Results

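The genes described here are 35 genes of the DNA damage checkpoint and of DNA repair, chosen by name from the array platform's gene symbols, with renamed symbols of the same gene allowed. Of the 35 listed genes, 31 had at least 1 probe set assigned to a single gene symbol, and all 31 passed the filter on low signals and were tested among 8810 genes, out of 12393 genes with such a probe set. Mdc1, Tlk1, Lig4 and Fancd2 had no probe set of a single symbol and have no values. For 15 of the genes more than 1 probe set was present, 55 probe sets in all, and the one with the highest mean signal stands for the gene unless another is named.

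Cells sense broken or stalled DNA through sensor complexes (the Mre11-Rad50-Nbn complex at breaks, the Rad9-Rad1-Hus1 clamp and Topbp1 at single-stranded DNA), which activate the kinases Atm and Atr. These kinases signal through Chek2 and Chek1 to the Cdc25 phosphatases and Wee1, which set the activity of cyclin-dependent kinases and so hold or release the cell cycle. Breaks are then repaired by homologous recombination (Brca1, Brca2, Rad52, Rad54l, with Rpa1 and Rpa2 coating single strands) or by end joining (Xrcc5 and Xrcc6, which form the Ku dimer, with Prkdc and Xrcc4). Damaged bases and mispairs are removed by excision and mismatch repair (Apex1, Parp1, Xrcc1, Ercc1, Msh6). In developing T cells end joining also completes the rearrangement of the antigen receptor genes, and loss of Atm or Prkdc is a known cause of thymic lymphoma in mice.

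The samples were 47 arrays of total RNA, each from cells of 1 mouse T-cell lymphoblastic tumour, titled by 14 genetic backgrounds. The 3 backgrounds compared were p53 knockout (3 tumours), Cdkn2a knockout with retroviral insertional mutagenesis (9 tumours) and TLX1 transgenic (6 tumours, the only ones labelled TLX1 positive). The other 11 had 3 tumours each for Ikaros Plastic, the single transgenics Nup98HoxD13, beta-catenin, LMO1 and ThPOK and the double transgenics olig1-LMO1 and Tal1-LMO2, and 2 each for the Pokemon and Tal1 transgenics and for knockouts of E2A and of rag with E2A (titled rag E2A). The labels give no age, strain, promoter or allele, name no normal thymus, and do not say that tumours came from separate mice, so p-values measure only the spread between these samples. p53 and the Cdkn2a products p19Arf and p16Ink4a are the classical brakes on cells with damaged DNA or activated oncogenes.

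Some tumours stood apart or went against their titles. p53 knockout tumour 2 had little T-cell RNA: 2 of 12 T-cell markers lay above its array median, against at least 10 of 12 on each of the other 46 arrays, and their summed signal was 1716, against 9537 to 37010 elsewhere. The summed signal of 12 endothelial markers in that tumour was 20430, against 307.3 to 2245 elsewhere, and that of 12 stromal markers was 30610, against 336.6 to 11530. TLX1 tumours 2, 5 and 6 had log2 ratios of 3' to 5' control signal, a measure of RNA integrity, of 2.79, 2.55 and 1.94. The ratios were 0.52, 0.90 and 0.37 in TLX1 tumours 1, 3 and 4. In the 41 tumours of other backgrounds they ran from -0.17 to 0.97, with a median of -0.03 that lay below every TLX1 tumour. The highest of these 41 was p53 knockout tumour 1 at 0.97, and p53 knockout tumours 2 and 3 had 0.65 and 0.07. The Lmo1 probe set read 586.4 to 2526 in the 3 tumours labelled Nup98HoxD13 and 11.14 to 34.26 in the 3 labelled olig1-LMO1, which goes against both titles. The Cdkn2a probe set read 12.73 to 37.31 in the Cdkn2a knockout tumours and 2.361 to 344.8 in the others, with medians of 24.43 and 27.55. Mouse Tlx1 had a median of 14.89 in TLX1 tumours and 18.86 elsewhere, and the labels do not name the species of the transgene, so neither probe set checks its title. In bulk RNA, fewer cells of a type and less RNA per cell cannot be told apart.

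Each background was compared with the unweighted mean of the other 13 on log2(signal + 15.91), and again at equal proliferation score. That score is the mean centred log2 signal of 45 genes of DNA replication and mitosis, none of which is among the 35. Calls required an adjusted p under 0.05 (limma, Benjamini-Hochberg adjustment over all 8810 genes). The 3 comparisons share samples, since each background is part of the rest for the others. With each background's own deviation counted as error (a random block), 0 of 31 genes were called in any of the 3 comparisons (limma), with 1, 1 and 3 genes at an unadjusted p under 0.05 in p53 knockout, Cdkn2a knockout and TLX1 tumours. Of all genes 0%, 0.0114% and 0.0227% were called in these fits, in the same order, so almost no gene on the array was called. The calls below therefore describe these tumours against the spread of tumours within backgrounds.

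**Figure D1:**
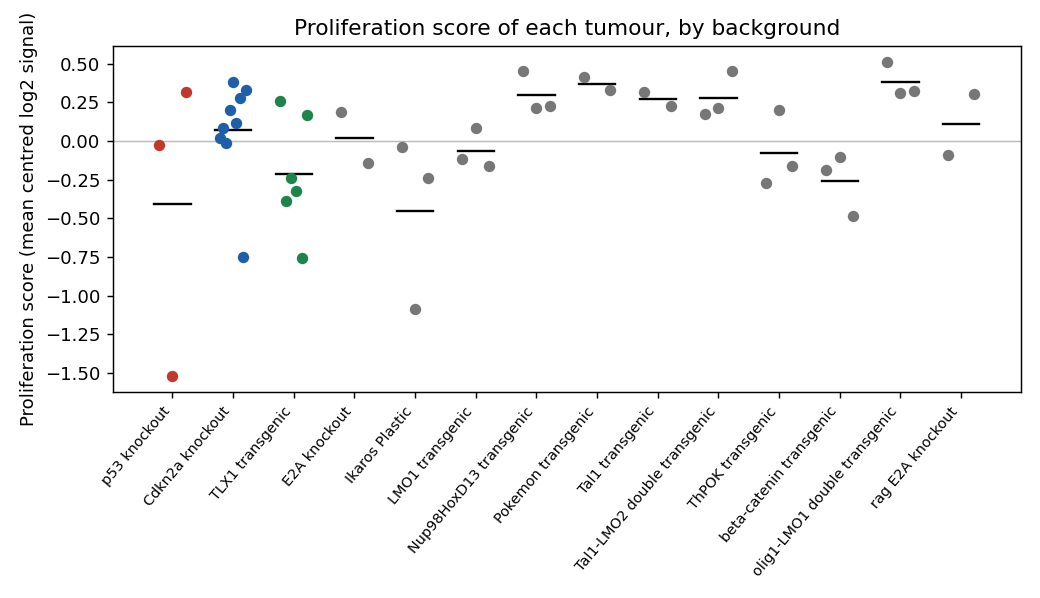
Proliferation score of each of the 47 tumours (vertical axis, mean centred log2 signal of 45 genes) by background (horizontal axis); points are tumours, black bars are background means, and the 3 compared backgrounds are coloured. p53 knockout tumour 2 lies lowest at -1.52, followed by Ikaros Plastic tumour 2 at -1.09.

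The proliferation score differed between tumours of 1 background. It was -0.03, -1.52 and 0.32 in p53 knockout tumours 1 to 3, ran from -0.75 to 0.38 in Cdkn2a knockout tumours, and from -0.76 to 0.26 in TLX1 tumours. The 4 lowest tumours were p53 knockout 2, Ikaros Plastic 2 (-1.09), TLX1 tumour 5 and Cdkn2a knockout tumour 8. The mean centred log2 signal of the 31 genes was lowest in the first 3 of these, at -0.87, -0.78 and -0.43, against up to 0.30 in the highest tumour.

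Within backgrounds most checkpoint and repair genes rose with the proliferation score. The slope was positive for 30 of 31 genes and called for 21 of 31, all positive. Over all 8810 genes 36.3% were called, 17% positive and 19.3% negative. The median slope was 0.45 log2 units per unit of score for the 31 genes and -0.02 for all genes. By role, the slope was called for 3 of 3 Cdc25 phosphatases, 6 of 7 recombination and Fanconi genes, 5 of 7 kinases, 3 of 6 sensors and mediators, 3 of 5 excision and mismatch repair genes and 1 of 3 end-joining genes.

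The steepest slopes belonged to Xrcc6, the 70 kDa subunit of Ku, at 1.94 ± 0.33 (SE, adjusted p = 2.734e-05), Rad54l, a DNA translocase of recombination, at 1.12 ± 0.15, Cdc25c, the phosphatase of mitotic entry, at 0.99 ± 0.19, Msh6, a mismatch sensor, at 0.97 ± 0.19, and Topbp1, the activator of Atr, at 0.95 ± 0.11. Brca1 followed at 0.95 ± 0.10 (adjusted p = 2.794e-09). The lowest were Ercc1, a subunit of the excision nuclease, at -0.13 ± 0.16, Xrcc4, the partner of DNA ligase 4, at 0.08 ± 0.13, Rad17, the loader of the Rad9-Rad1-Hus1 clamp, at 0.23 ± 0.10, Xrcc5 at 0.23 ± 0.22 and Atr at 0.25 ± 0.11. None of these 5 was called (adjusted p from 0.0823 to 0.674).

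The calls of these slopes rested on few tumours. Without p53 knockout tumour 2, 14 of 31 were called (18.6% of all genes). Without the 4 tumours of lowest score, an alternative added after seeing the data, 28 of 31 slopes were positive and 1 was called, against 1.28% of all genes, with 11 at an unadjusted p under 0.05. The median slope was then 0.35 for the 31 genes and -0.07 for all genes. The called gene was Brca1, with a slope of 0.84 ± 0.19 (adjusted p = 0.0194). Of the other steep slopes, that of Cdc25c was 1.34 ± 0.39, that of Topbp1 0.65 ± 0.23 and that of Rad54l 0.67 ± 0.31, while that of Xrcc6 was 0.46 ± 0.52 and that of Msh6 was 0.08 ± 0.37. Markers of cell types moved with the score too: 8 of 12 tested T-cell markers sloped up, and 9 of 11 endothelial and 9 of 12 stromal markers sloped down. Their part in the slopes was not tested.

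**Figure D2:**
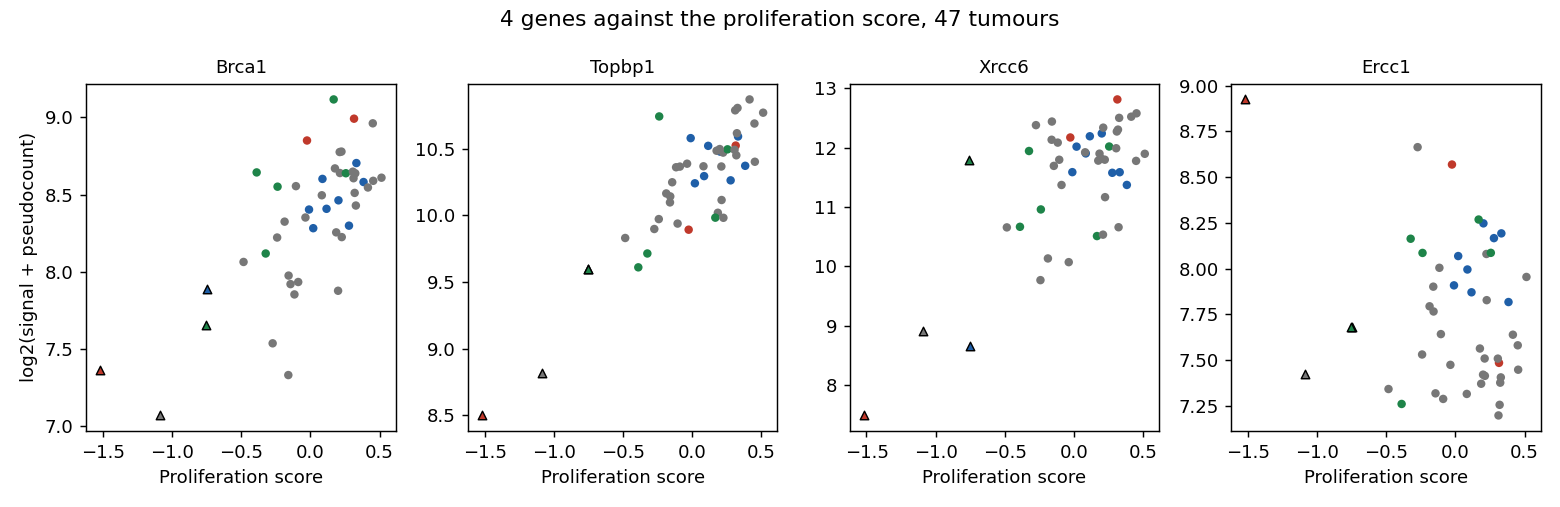
log2(signal + pseudocount) of Brca1, Topbp1, Xrcc6 and Ercc1 (vertical axes, each with its own range) against the proliferation score (horizontal axes) in 47 tumours; red points are p53 knockout, blue Cdkn2a knockout, green TLX1 and grey the other backgrounds, and outlined triangles are the 4 tumours of lowest score, of which a pair overlaps in the Topbp1 and Ercc1 panels. Brca1, Topbp1 and Xrcc6 fall towards the left, and Ercc1 has its highest value in p53 knockout tumour 2.

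Many genes of DNA replication are controlled by E2F factors, which bind promoters, so the windows of these genes were searched for the letters TTTCCCGC, TTTCGCGC, TTTGCCGC and TTTGGCGC on both strands. The windows are RefSeq's, build GRCm38.p6, from 250 bases before to 30 bases after a start listed for the gene. Of the 35 genes 29 had one, and the first listed was taken where a gene had more than 1 (5 genes). The windows of Xrcc6, Ercc1, Brca2, Tlk2, Cdc25b, Rad52 and Tlk1 lie inside the gene's span, past its first base. Positions there are relative to the listed start only. At least 1 match stood in 7 of 29 windows, against 2.16% of 27025 promoters of the same length. Among tested genes the match was present in 6 of 18 with a called slope (Chek2, Topbp1, Cdc25a, Xrcc6, Msh6 and Brca2) and in 0 of 8 without. This split uses the slopes over all 47 tumours, and without the 4 of lowest score only the slope of Brca1 was called. The letters CCAAT, also on both strands, stood in 12 of 18 and 2 of 8, against 36.6% of all promoters. The last motif searched, TTTGAA or TTCGAA (CHR), stood in 2 of 18 and 2 of 8. Its share was 4 of 29 windows, against 18.6% of all promoters. Rad54l and Brca1, with slopes of 1.12 and 0.95, had no E2F match in their windows, which says only that these letters are not there. The 4 windows with a match and the steepest slopes are given with that of Ercc1, the gene of lowest slope, with the match in capitals.
Topbp1, chr9:103305077-103305356, plus strand: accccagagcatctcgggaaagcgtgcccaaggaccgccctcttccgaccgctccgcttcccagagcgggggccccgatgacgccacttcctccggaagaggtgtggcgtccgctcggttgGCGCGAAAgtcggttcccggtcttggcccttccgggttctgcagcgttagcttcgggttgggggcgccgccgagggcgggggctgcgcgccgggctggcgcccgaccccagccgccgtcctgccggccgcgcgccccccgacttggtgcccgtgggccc
Cdc25a, chr9:109875329-109875608, plus strand: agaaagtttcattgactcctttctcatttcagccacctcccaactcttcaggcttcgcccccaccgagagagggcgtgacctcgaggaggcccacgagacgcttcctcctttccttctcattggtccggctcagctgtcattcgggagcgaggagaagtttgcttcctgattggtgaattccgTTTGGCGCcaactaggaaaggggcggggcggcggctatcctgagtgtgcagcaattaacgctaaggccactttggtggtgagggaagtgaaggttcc
Msh6, chr17:87974800-87975079, plus strand: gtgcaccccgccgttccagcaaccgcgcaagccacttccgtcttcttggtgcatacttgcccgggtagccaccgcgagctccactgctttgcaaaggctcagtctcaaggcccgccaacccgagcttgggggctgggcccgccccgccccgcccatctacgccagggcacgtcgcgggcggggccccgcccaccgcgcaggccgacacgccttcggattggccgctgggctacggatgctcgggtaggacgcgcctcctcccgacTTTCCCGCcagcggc
Xrcc6, chr15:82016119-82016398, plus strand: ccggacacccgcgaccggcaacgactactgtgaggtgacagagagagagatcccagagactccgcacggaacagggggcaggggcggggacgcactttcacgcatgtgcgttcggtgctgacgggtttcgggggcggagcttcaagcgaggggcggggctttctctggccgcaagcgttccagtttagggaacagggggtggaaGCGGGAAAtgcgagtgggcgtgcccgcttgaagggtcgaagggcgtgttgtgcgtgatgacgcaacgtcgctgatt
Ercc1, chr7:19344821-19345100, plus strand: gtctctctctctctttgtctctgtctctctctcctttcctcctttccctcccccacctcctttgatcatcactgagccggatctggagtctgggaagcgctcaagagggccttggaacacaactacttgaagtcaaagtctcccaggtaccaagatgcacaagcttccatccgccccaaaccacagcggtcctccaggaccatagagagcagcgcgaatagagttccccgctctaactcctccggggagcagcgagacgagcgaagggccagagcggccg
The match lies upstream of the listed start in Topbp1, Cdc25a and Xrcc6 and just after it in Msh6, and the Ercc1 window holds none.

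**Figure D3:**
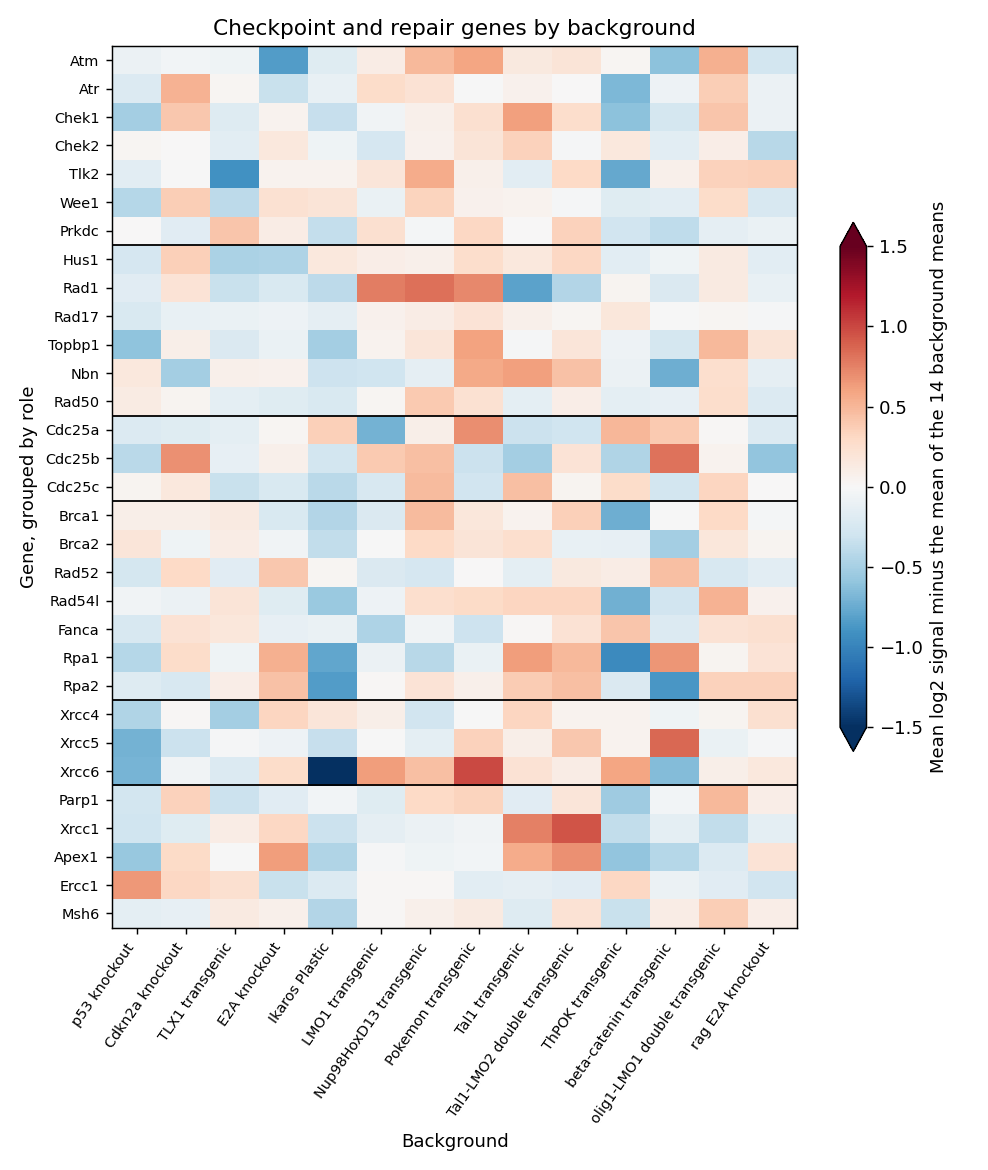
Mean log2 signal of each of 31 genes (rows, grouped by role from kinases, sensors, Cdc25 phosphatases, recombination and end joining to excision and mismatch repair) in each of 14 backgrounds (columns), minus the mean of the 14 background means; red is higher and blue lower, and the scale stops at 1.5. The lowest cell is Xrcc6 in Ikaros Plastic at -1.93 and the highest is Xrcc6 in Pokemon transgenic at 0.99.

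In Cdkn2a knockout tumours 8 of the 31 genes passed the threshold, 7 upward and 1 downward, against 30.7% of all genes (16.1% higher and 14.6% lower), so the share was slightly below that of all genes. Atr, its effector Chek1 and Wee1 rose among 7 kinases, the clamp subunit Hus1 rose and Nbn, the regulatory subunit of the break-sensing complex, fell among 6 sensors and mediators, and Cdc25b rose among 3 Cdc25 phosphatases. Parp1 and Ercc1 rose among 5 excision and mismatch repair genes, and 0 of 7 recombination and 0 of 3 end-joining genes were called (limma), with 2 and 0 at an unadjusted p under 0.05. Other checkpoint genes were not called, such as Chek2 (0.01 ± 0.11), Topbp1 (0.10 ± 0.15) and Rad17 (-0.13 ± 0.09). The median difference was 0.04 for the 31 genes and 0.02 for all genes.

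Atr, the kinase that responds to stalled replication, had signals from 255.0 to 368.7 in the 9 tumours, with a median of 309.7, against 104.0 to 308.3 with a median of 217.2 in the other 38. Of the 9 tumours, 6 lay above every other tumour and all lay above the median of the rest. Its log2 difference was 0.57 ± 0.10 (SE, adjusted p = 3.44e-05, limma), and 0.55 ± 0.09 at equal proliferation score.

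Chek1, the kinase downstream of Atr, ranged from 294.5 to 631.2 with a median of 575.7, against 128.3 to 750.9 with a median of 404.9 elsewhere. The groups overlapped, and 8 of 9 tumours lay above the median of the rest, with tumour 8 as the exception. The difference was 0.43 ± 0.15 (adjusted p = 0.0234), and 0.39 ± 0.10 at equal score. A second Chek1 probe set gave 0.74 ± 0.18. Set against the 11 backgrounds other than p53 knockout and TLX1, Chek1 differed by 0.38, which was no longer called (adjusted p = 0.0605).

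Hus1, part of the clamp that marks damaged DNA for Atr, ranged from 167.2 to 298.6 with a median of 250.9, against 86.49 to 254.0 with a median of 173.0. Of the 9 tumours, 3 lay above every other tumour and 8 above the median of the rest. The difference was 0.39 ± 0.10 (adjusted p = 0.00351).

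Wee1, the kinase that restrains cyclin-dependent kinases, ranged from 251.7 to 454.8 with a median of 386.8, against 82.06 to 426.7 with a median of 272.9. Its difference was 0.40 ± 0.13 (adjusted p = 0.0202), and 0.33 against the 11 other backgrounds (adjusted p = 0.0663). Cdc25b, the phosphatase that opposes Wee1, ranged from 453.8 to 691.7 with a median of 559.3, against 96.91 to 785.5 with a median of 312.6. All 9 tumours lay above the median of the rest, and the difference of 0.74 ± 0.19 (adjusted p = 0.00268) was the largest of the 8. Wee1 and Cdc25b, which act in opposite directions on the same kinases, were thus both higher, while Cdc25a differed by -0.20 ± 0.14 and Cdc25c by 0.17 ± 0.20 without being called.

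Nbn ranged from 102.9 to 184.2 with a median of 156.9, against 112.0 to 432.6 with a median of 209.7. All 9 tumours lay below the median of the rest, and the difference was -0.54 ± 0.12 (adjusted p = 0.000519). Rad50, its partner in the complex, differed by 0.04 ± 0.12. Atm, the kinase this complex activates, differed by -0.04 ± 0.13.

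Parp1, the sensor of single-strand breaks, ranged from 1205 to 2125 with a median of 1682, against 592.4 to 1969 with a median of 1230. Its difference was 0.38 ± 0.11 (adjusted p = 0.0107). Ercc1 ranged from 189.2 to 288.1 with a median of 239.4, against 131.0 to 470.1 with a median of 171.2, and all 9 tumours lay above that median. Its difference of 0.34 ± 0.13 (adjusted p = 0.0469) lay near the threshold and was lost in 27 of 47 fits that left out 1 tumour each, and without the tumours labelled Nup98HoxD13 and olig1-LMO1 (0.33, adjusted p = 0.0602).

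At equal proliferation score all 8 genes stayed called and 2 were added, both subunits of the single-strand binding protein: Rpa1 was higher by 0.26 ± 0.09 (adjusted p = 0.0207) and Rpa2 lower by 0.30 ± 0.10 on the log2 scale (adjusted p = 0.0211). Of these 10, 8 were higher and 2 lower, against 36% of all genes (19.4% higher and 16.6% lower). Rpa1 read 2773 to 4865 with a median of 3808, against 1242 to 6226 with a median of 3086, and Rpa2 read 347.2 to 540.0 with a median of 462.7, against 171.2 to 868.0 with a median of 584.7. All 9 tumours lay below the Rpa2 median of the rest and 8 of 9 above the Rpa1 median. The second Rpa2 probe set differed by 0.05 ± 0.15 at equal score, opposite in sign, and the Rpa1 call was lost without the doubted titles (adjusted p = 0.0984). Leaving out Cdkn2a knockout tumour 1, 2 or 6 also ended the Rpa1 call, and leaving out tumour 2 or 4 the Rpa2 call.

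Markers of cell types differed too: 5 of 12 stromal markers were higher and 1 lower in Cdkn2a knockout tumours, and 3 of 12 T-cell markers were lower. Of all genes 16.1% were higher and 14.6% lower. At equal score 10 of 12 stromal and 5 of 11 endothelial markers were higher, against 19.4% of all genes. The part of other cells in these differences was not tested. Leaving out tumour 8, whose proliferation score was -0.75 against -0.01 to 0.38 in the other 8, gave 11 called genes, 10 higher and 1 lower (30.3% of all genes).

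**Figure D4:**
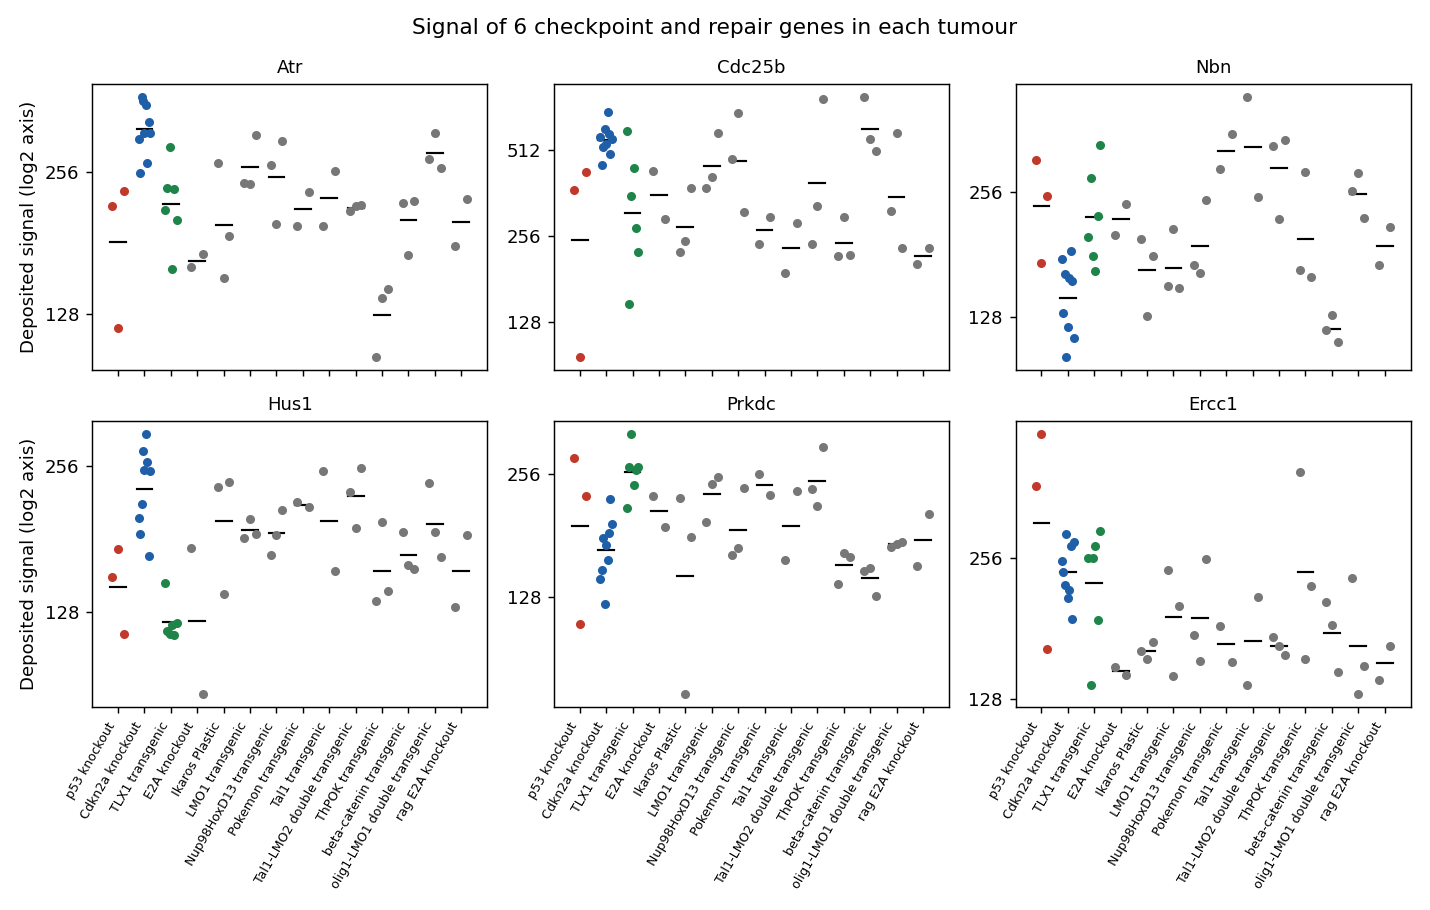
Deposited signal (vertical axes, log2 scaled, each with its own range) of Atr, Cdc25b, Nbn, Hus1, Prkdc and Ercc1 in each of 47 tumours by background (horizontal axes); points are tumours, black bars are geometric means, and p53 knockout is red, Cdkn2a knockout blue and TLX1 green. In Cdkn2a knockout tumours Atr lies between 255.0 and 368.7 and Nbn between 102.9 and 184.2, and in TLX1 tumours Hus1 lies between 114.9 and 146.7.

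In TLX1 tumours Tlk2, Hus1, Xrcc4, Wee1 and Parp1 were lower and Prkdc was higher than in the other backgrounds. These were 6 of 31 genes, 1 higher and 5 lower, against 31.5% of all genes (19% higher and 12.5% lower), a smaller share than among all genes. The median difference was -0.10 for the 31 genes and 0.07 for all genes. None of the 6 calls held without TLX1 tumours 2, 5 and 6 (11% of all genes called) or with the 3'/5' ratio added to the fit (3.51% of all genes), where 5 and 3 of 31 genes had an unadjusted p under 0.05 in limma.

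Hus1 was uniformly low, from 114.9 to 146.7 with a median of 118.4, against 86.49 to 298.6 with a median of 187.0 in the other 41 tumours, and all 6 tumours lay below that median. Its difference was -0.51 ± 0.12 (adjusted p = 0.00146), and -0.46 ± 0.17 (adjusted p = 0.0725) without tumours 2, 5 and 6. The second Hus1 probe set gave -0.97 ± 0.20.

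Xrcc4, which joins broken ends with DNA ligase 4, ranged from 61.92 to 115.6 with a median of 84.69, against 75.11 to 187.0 with a median of 127.4, and again all 6 tumours lay below that median. Its difference was -0.55 ± 0.12 (adjusted p = 0.000672), and -0.32 ± 0.16 without tumours 2, 5 and 6. The second Xrcc4 probe set gave -0.15 ± 0.16, which was not called.

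Prkdc, the catalytic subunit of the DNA-dependent kinase, ranged from 211.3 to 320.9 with a median of 264.7, against 73.97 to 298.5 with a median of 178.7. All 6 tumours lay above the median of the rest, and TLX1 had the highest mean of the 14 backgrounds. The difference was 0.45 ± 0.14 (adjusted p = 0.0131), 0.55 ± 0.13 at equal score, and 0.42 ± 0.20 (adjusted p = 0.172) without tumours 2, 5 and 6.

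Tlk2, a kinase of chromatin assembly, read 374.1, 84.3, 285.5, 128.6, 121.9 and 88.7 in tumours 1 to 6, against 153.3 to 485.4 with a median of 325.8 elsewhere. Of these, 4 lay below every other tumour while tumours 1 and 3 lay within the range of the rest. The difference was -0.97 ± 0.18 (adjusted p = 0.000111), and 2 other Tlk2 probe sets gave 0.07 ± 0.11 and 0.10 ± 0.15. Without tumours 2, 5 and 6 it was -0.38 ± 0.21 (adjusted p = 0.242).

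Wee1 read 82.06 to 331.6 with a median of 243.6, against 164.9 to 454.8 with a median of 307.0, and differed by -0.42 ± 0.16 (adjusted p = 0.0371). Parp1 read 592.4 to 1574 with a median of 1062, against 639.2 to 2125 with a median of 1362, and differed by -0.35 ± 0.13 (adjusted p = 0.042). Without tumours 2, 5 and 6 the differences were -0.14 ± 0.16 for Wee1 and -0.02 ± 0.16 for Parp1. Both calls were lost without tumour 2 and without tumour 5, Wee1 in 3 and Parp1 in 7 of 47 fits that left out 1 tumour each. They were also lost without the tumours labelled Nup98HoxD13 and olig1-LMO1, at -0.37 (adjusted p = 0.0853) for Wee1 and -0.28 (adjusted p = 0.127) for Parp1. Hus1, Wee1 and Parp1 were called lower here and higher in Cdkn2a knockout tumours. Set against the 11 backgrounds without p53 knockout and Cdkn2a knockout, they differed in TLX1 tumours by -0.51, -0.43 and -0.35 and remained called (adjusted p from 0.00172 to 0.0451).

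At equal proliferation score 7 of 31 genes were called, 4 higher and 3 lower, against 31% of all genes (18.6% higher and 12.4% lower). Tlk2 (-0.86 ± 0.18), Hus1 (-0.44 ± 0.12) and Xrcc4 (-0.53 ± 0.12) stayed lower and Prkdc stayed higher, while Wee1 and Parp1 were no longer called. Rad54l was higher by 0.49 ± 0.15 (adjusted p = 0.00951), Brca1 by 0.39 ± 0.09 (adjusted p = 0.00208) and Rpa2 by 0.33 ± 0.13 (adjusted p = 0.0459). Rad54l read 263.7 to 624.8 with a median of 370.8, against 109.1 to 542.5 with a median of 344.0, so the groups overlapped. Brca1 read 185.9 to 538.9 with a median of 370.7, against 118.4 to 492.9 with a median of 328.7, and Rpa2 read 412.4 to 831.3 with a median of 563.4, against 171.2 to 868.0 with a median of 540.0. None of these 3 held without tumours 2, 5 and 6 (differences of 0.20, 0.26 and 0.06), and Rpa2 was lost in 23 of 47 fits that left out 1 tumour each.

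Probe sets of 1 gene disagreed in TLX1 tumours. The Brca1 probe set used differed by 0.15 ± 0.17 before adjustment for the score, and 2 others by -1.20 ± 0.21 and -1.11 ± 0.24. Rpa2 differed by 0.11 ± 0.18 in the set used and by -1.27 ± 0.25 in the other. For Parp1 the set used gave -0.35 ± 0.13 and the others -0.49 ± 0.14 and 0.02 ± 0.14. At equal score Chek1 differed by 0.00 ± 0.12 in the set used and by -0.53 ± 0.14 in the other (adjusted p = 0.00278 over all probe sets, limma), and before adjustment for the score by -0.21 ± 0.17 and -0.81 ± 0.21. The directions of Brca1, Rpa2 and Tlk2 in TLX1 tumours therefore depend on the probe set, and so does whether Parp1 and Chek1 were lower. Among markers, 10 of 12 stromal, 7 of 14 myeloid and 3 of 11 endothelial markers were higher in TLX1 tumours, and the summed myeloid signal was 60710 in tumour 2, against 3426 to 10750 in the other 5. Their part in the differences was not tested.

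In p53 knockout tumours Apex1, Xrcc5 and Xrcc4 were lower and Ercc1 was higher, but no gene was called once tumour 2, with little T-cell RNA, was left out. With all 3 tumours 4 of 31 genes were called, 1 higher and 3 lower, against 21.7% of all genes (12.4% higher and 9.34% lower), a smaller share. Without tumour 2 the count was 0 of 31 (limma), with 4 genes at an unadjusted p under 0.05, against 6.58% of all genes called. In the full set 10 of 11 endothelial and 9 of 12 stromal markers were higher, and 8 of 12 T-cell markers lower.

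Apex1, the nuclease of base excision repair, read 1280, 782.2 and 1322 in tumours 1 to 3, against 718.3 to 3587 with a median of 1750 in the other 44. All 3 lay below that median. Its difference was -0.61 ± 0.21 (adjusted p = 0.0297), and -0.37 ± 0.24 (adjusted p = 0.397) without tumour 2.

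Xrcc4 read 75.1, 90.3 and 99.9, against 61.92 to 187.0 with a median of 125.8. Here tumour 2 was not the lowest, and the difference was -0.49 ± 0.16 (adjusted p = 0.0294) with all 3 tumours and -0.50 ± 0.20 (adjusted p = 0.118) without it. Xrcc5, the 80 kDa Ku subunit, read 214.5, 102.2 and 158.8, against 97.84 to 680.9 with a median of 246.8. Its difference of -0.76 ± 0.28 (adjusted p = 0.0492) lay at the threshold, was lost in 31 of 47 fits that left out 1 tumour each and without the doubted titles (adjusted p = 0.0534), and was -0.51 ± 0.34 without tumour 2.

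Ercc1 read 363.9, 470.1 and 163.3, against 131.0 to 389.7 with a median of 186.5. Tumour 2 held the highest signal of all 47 and tumour 3 lay below the median of the rest. The difference was 0.70 ± 0.21 (adjusted p = 0.0166), and 0.40 ± 0.24 (adjusted p = 0.358) without tumour 2. The calls of Ercc1 and Xrcc4 were also lost without tumour 1.

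At equal proliferation score 2 of 31 genes were called, both higher, against 15.8% of all genes (9.07% higher and 6.71% lower): Ercc1, at 0.64 ± 0.22 (adjusted p = 0.0476, lost in 33 of 47 fits that left out 1 tumour each), and Brca1, at 0.53 ± 0.13 (adjusted p = 0.00595). Brca1, the scaffold of recombination repair, read 445.5, 148.8 and 492.9, against 118.4 to 538.9 with a median of 332.7, so 2 tumours were high and tumour 2 was low with its score. Without tumour 2, Brca1 was higher by 0.52 ± 0.15 at equal score (adjusted p = 0.0276) and was the only one of the 31 genes called (8.01% of all genes). With the Brca1 probe set of largest interquartile range the difference was no longer called.

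The other genes varied mostly with tumour 2. Xrcc6 read 4601, 164.0 and 7181, the lowest and the highest signal of all 47 tumours. It differed by -0.75 ± 0.59 with all 3 tumours and by 0.92 ± 0.53 without tumour 2, and was called in neither. Chek1 read 406.1, 128.3 and 394.3 and Topbp1 read 934.4, 346.2 and 1455, with differences of -0.55 ± 0.24 and -0.65 ± 0.25 (adjusted p = 0.0902 and 0.0569). Without tumour 2 these were -0.04 ± 0.25 and -0.08 ± 0.25. Atm differed by -0.09 ± 0.21, and by 0.21 ± 0.24 without tumour 2, and Atr by -0.22 ± 0.15, and by 0.05 ± 0.17 without it. Over the 31 genes the median difference was -0.22 with all 3 tumours and 0.14 without tumour 2, against 0.04 for all genes in both, and 8 and 20 of 31 differences were positive.

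**Figure D5:**
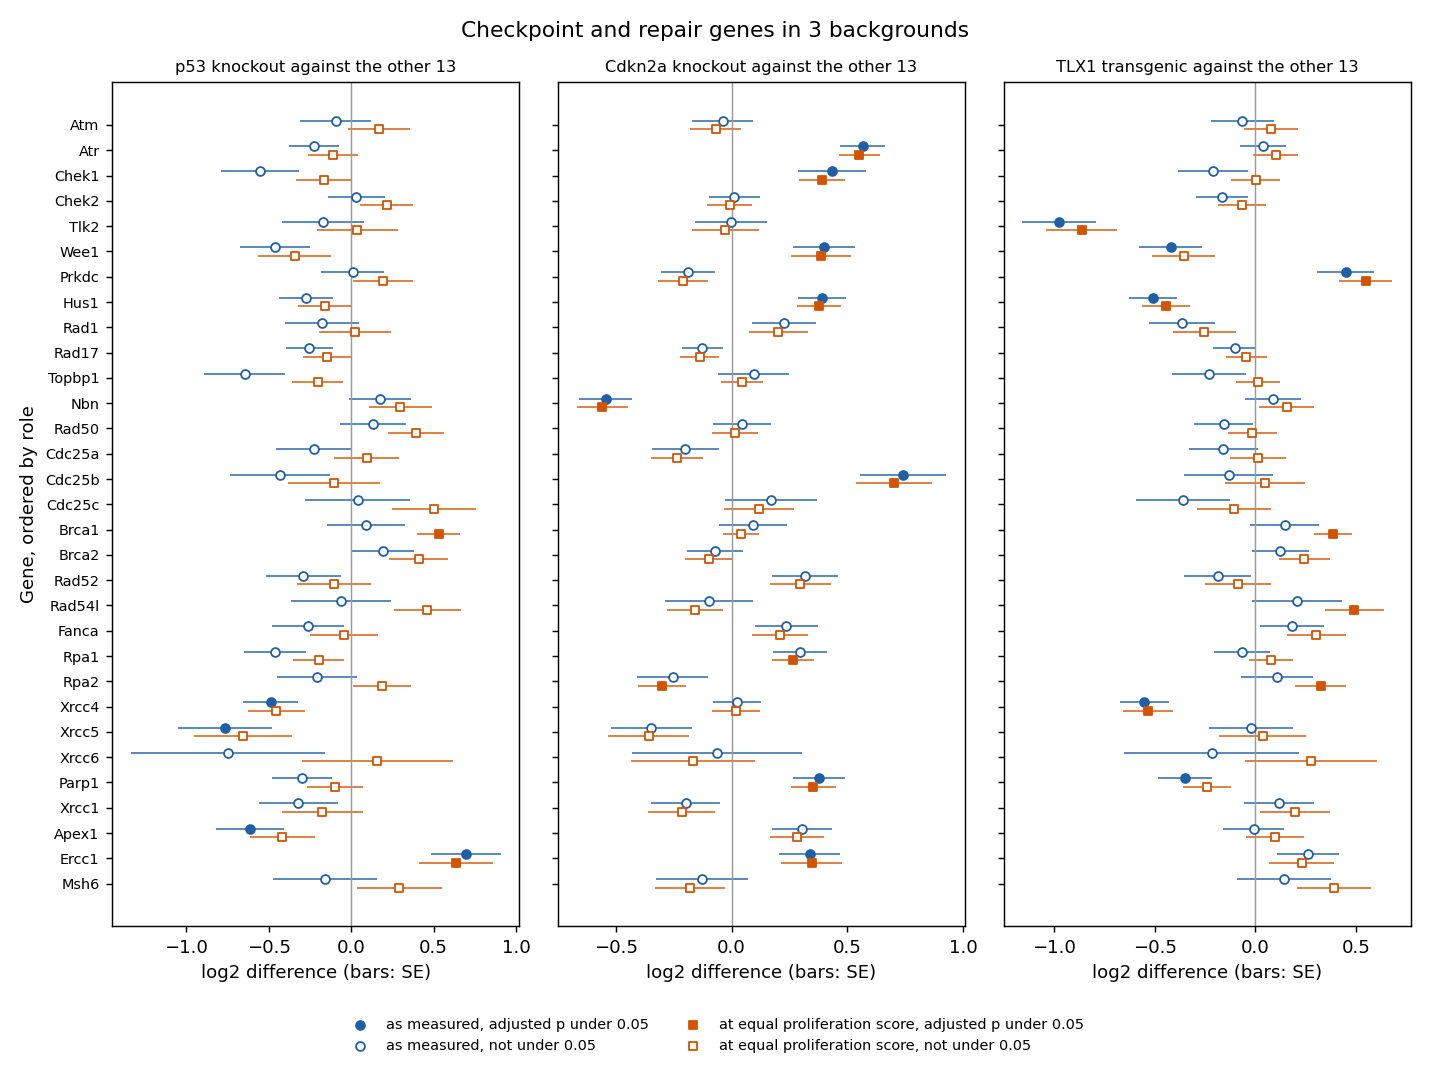
log2 difference of each of 31 genes (vertical axis, ordered by role) from the mean of the other 13 backgrounds (horizontal axes, each with its own range; bars are SE) in p53 knockout, Cdkn2a knockout and TLX1 tumours; blue circles are values as measured, orange squares values at equal proliferation score, and filled symbols have an adjusted p under 0.05. In Cdkn2a knockout tumours 8 circles and 10 squares are filled, in TLX1 tumours 6 and 7, and in p53 knockout tumours 4 and 2.

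Over the 3 comparisons 13 of 31 genes were called at least once and 5 in more than 1, and 14 were called in none with or without the score. Each comparison alone called 21.7% to 31.5% of all genes, or 15.8% to 36% at equal score. The shares of all genes over the 3 comparisons together were not counted, so these counts describe only the 31 genes. The genes called in none included Atm, Chek2, Topbp1, Rad17, Rad1, Rad50, Cdc25a, Cdc25c, Brca2, Rad52, Fanca, Xrcc1, Xrcc6 and Msh6. The adjustment for proliferation left the sign unchanged for 30 of 31 genes in Cdkn2a knockout, 23 of 31 in p53 knockout and 22 of 31 in TLX1 tumours. The median difference moved from -0.22 to 0.03 in p53 knockout, from -0.10 to 0.05 in TLX1 and from 0.04 to 0.02 in Cdkn2a knockout tumours. Leaving out tumours moved it as well, without adjustment, to 0.14 without p53 knockout tumour 2 and to 0.03 without TLX1 tumours 2, 5 and 6.

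Among the other 11 backgrounds, ThPOK transgenic tumours had 6 of 31 genes lower (11.8% of all genes called), led by Rpa1 (-1.03 ± 0.19), Tlk2 (-0.82 ± 0.25) and Brca1 (-0.79 ± 0.24). Ikaros Plastic tumours had 3 lower (22.8% of all genes), Xrcc6 (-2.08 ± 0.59), Rpa2 (-0.91 ± 0.24) and Rpa1 (-0.83 ± 0.19). Differences in these 11 backgrounds are given without the proliferation score. Ikaros Plastic tumour 2, with a score of -1.09, had the lowest signal of the 3 for each of these genes. In tumours 1 to 3 Rpa2 read 438.5, 171.2 and 309.9, and Rpa1 read 2467, 1242 and 2068. Xrcc6 read 466.1 to 1061 in the 3 Ikaros Plastic tumours, below every other tumour except p53 knockout 2 (164.0) and Cdkn2a knockout 8 (386.9). In beta-catenin transgenic tumours 3 were higher and 4 lower (18.8% of all genes), with Rpa2 at -0.95 ± 0.24, Xrcc5 at 0.93 ± 0.28 and Cdc25b at 0.88 ± 0.30.

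Tal1-LMO2 double transgenic tumours had Xrcc1, the scaffold of single-strand break repair (1.01 ± 0.24), and Apex1 (0.74 ± 0.21) higher (6.67% of all genes called). The 2 E2A knockout tumours had Atm lower (-0.90 ± 0.26, 4.34%). Their Atm signals were 162.1, the lowest of all 47, and 308.6, within the 230.1 to 789.9 of the other backgrounds. Tumours labelled Nup98HoxD13 had Rad1, a clamp subunit, higher (0.89 ± 0.22, 3.01%), with signals of 272.9, 401.2 and 659.4. Rad1 read 358.9, 454 and 392.8 in LMO1 tumours, where it was not called. In Tal1, LMO1, olig1-LMO1, rag E2A knockout and Pokemon tumours 0 of 31 genes were called by limma, with 6, 3, 4, 1 and 5 at an unadjusted p under 0.05, against 4.96%, 1.03%, 0.658%, 1.56% and 0.953% of all genes called.

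Of 90 other repair genes 68 were tested. In Cdkn2a knockout tumours 17 of the 68 were called, against 30.7% of all genes, 12 higher and 5 lower, among them the Fanconi genes Fanci (0.65 ± 0.12), Fancl (0.39 ± 0.11) and Fancf (0.33 ± 0.10) and the alkyl transferase Mgmt (0.87 ± 0.25), with Ercc5 (-0.59 ± 0.13), Rad51d (-0.53 ± 0.13), Ercc3 (-0.34 ± 0.08) and Ddb1 (-0.29 ± 0.07) lower. In TLX1 tumours 20 of the 68 were called, against 31.5% of all genes. Of these 10 were higher, including Smc5 (0.69 ± 0.14), Ercc3 (0.43 ± 0.10), Polb (0.54 ± 0.13) and Xpc (0.76 ± 0.20), and 10 lower, including Rad51c (-0.76 ± 0.16), Fancf (-0.50 ± 0.11), Mbd4 (-1.10 ± 0.26) and Exo1 (-0.80 ± 0.21). Without TLX1 tumours 2, 5 and 6 the count was 2 higher and 4 lower (11% of all genes), and with the 3'/5' ratio added to the fit 1 higher and 0 lower (3.51% of all genes).

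In p53 knockout tumours 11 of the 68 were called, against 21.7% of all genes: 1 was higher, the helicase gene Ercc3 (0.54 ± 0.14), and 10 lower, including Rpa3 (-0.94 ± 0.24), Polm (-1.12 ± 0.34), Ube2t (-0.93 ± 0.29) and Ung (-0.73 ± 0.23). Without tumour 2 the counts were 1 and 1 (6.58% of all genes). With the proliferation score 34 of 68 sloped up and 1 down, against 17% and 19.3% of all genes, with Usp1 (1.07 ± 0.10), Tipin (1.03 ± 0.11), Exo1 (1.13 ± 0.13) and Ube2t (1.13 ± 0.13) called upward at the lowest p, and Polm at -0.94 ± 0.21. Without the 4 tumours of lowest score 3 sloped up (1.28% of all genes).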

How the data were processed

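RNA from 47 mouse T-cell tumours was hybridised to Affymetrix arrays, and per the submitters' processing notes MAS5 was used. The deposited signal intensity values were linear, with trimmed means between 250.063 and 250.129 on every array (the outer 2% of probe sets left out at each end), so the authors' values appear scaled to a common mean, and array medians ran from 49.56 to 106.5. MAS5's version is not given in the sources used here. No sequencing depth exists for arrays, and the number of tumours limits the precision.

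Signals were taken as log2(signal + 15.91), the pseudocount being the 25th percentile of all signals, so that differences of low genes are understated. Of 22690 probe sets, 20380 had 1 gene symbol, 691 several, 1555 none and 64 were controls. Genes above the array median on at least 2 arrays were kept, with the probe set of highest mean signal per gene. Backgrounds were fitted as means in limma 3.58.1 (R 4.3.3, eBayes with trend), without and with the proliferation score. The fit was tested on simulated data with independent noise, of the same spread for a gene in all tumours. Such data hold no outlying tumour, no difference in RNA integrity and no unequal spread, so they cannot test the fit on those points. The fit assumes for each gene a spread shared by all backgrounds, but the spreads differed. The SD between tumours of the mean centred log2 signal of the 31 genes was 0.58 in p53 knockout. It was 0.16 in Cdkn2a knockout and 0.23 in TLX1 tumours. The SEs and adjusted p-values for p53 knockout tumours can therefore understate the spread of these 3 tumours.

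The genes and gene lists were chosen with earlier results of these data known. Named genes are those called in 1 of the 3 comparisons, up to 3 in each other background, up to 4 other repair genes a direction, and the 5 highest and 5 lowest slopes; Brca1's slope and the uncalled genes beside them were named after their values were seen. The p53 gene itself was not analysed here. Alternatives are given in the closing section.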

Additional observations from a re-analysis of the deposited data

Results flagged for a closer look

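In 64 sets of values (each of 31 genes and the proliferation score in the 6 TLX1 and the 9 Cdkn2a knockout tumours), 10 had an end value separated from the others by more than Dixon's 95% limit, 15.6% of the sets, where chance gives about 1 in 20. The sets are not independent.

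Cdkn2a knockout tumour 8 gave 6 of the 10. On the log2 scale its value was the lowest of the 9 for Chek1 (8.28, against 8.94 to 9.34), Topbp1 (9.60, against 10.24 to 10.59), Rad54l (7.06, against 8.23 to 9.12), Xrcc6 (8.65, against 11.37 to 12.24) and Msh6 (8.43, against 9.57 to 10.59), and its proliferation score was -0.75, against -0.01 to 0.38. As signals, Xrcc6 read 386.9 against 2636 to 4823 in the other 8. Its Atr signal, 326.1, lay within their range. Cdkn2a knockout tumour 2 had the highest Xrcc5 value, 8.76, against 7.34 to 8.04.

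In TLX1 tumours, Chek2 was lowest in tumour 5 (6.64, against 7.61 to 7.92), Hus1 was highest in tumour 1 (7.35, against 7.03 to 7.10) and Rad1 was lowest in tumour 4 (6.82, against 7.56 to 7.98). The cause of these values was not tested.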

How the results depend on the processing

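In p53 knockout tumours 4 genes were called (21.7% of all genes). The counts were 7 with the probe set of largest interquartile range (23.1%) and 0 with all other tumours as the rest (5.62%). They ran from 0 to 6 when 1 tumour was left out. The 0 came without tumour 2 of that background (6.58%), and the 6 without its tumour 3 or Ikaros Plastic tumour 2. At equal score 2 genes were called there (15.8% of all genes). The count was 1 with a pseudocount of 1, without the filter, after quantile normalization, with that probe set rule, with the replicate block or with a score of mitosis genes (12% to 19.7%). It was 0 with all other tumours as the rest (2.74%), and 1 to 2 when 1 tumour was left out. With background as a random block, at most 0.0227% of all genes were called in the 3 fits without the score. In each of the 6 fits 0 of the genes described here were called by limma, with 1 to 3 at an unadjusted p under 0.05. With all other tumours as the rest, those unadjusted counts were 6 and 5. In Cdkn2a knockout tumours the replicate block gave 4 called genes in place of 8 (Hus1, Wee1, Cdc25b, Parp1 and Ercc1 were lost and 1 gene was added). The share of all genes called also fell, from 30.7% to 19.4%. The title numbers do not pair samples: deviations of same-numbered tumours had a median correlation of -0.00 (230 pairs, -0.28 to 0.32). In TLX1 tumours the 3'/5' covariate, and leaving out tumours 2, 5 and 6, gave 0 in place of 6 and 0 in place of 7 at equal score. Without the score these fits called 3.51% and 11% of all genes in TLX1 tumours, in place of 31.5%. Leaving out 1 tumour gave 4 to 6 and 6 to 9 there, 7 to 11 and 8 to 11 in Cdkn2a knockout tumours, and 14 to 22 called slopes. Without the 4 tumours of lowest score 1 slope was called in place of 21.

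Reversed values were, in TLX1 tumours with the probe set of largest interquartile range, Tlk2 (0.10, and 0.12 at equal score), Brca1 (-0.61) and Rpa2 (-0.76) at equal score, and with the 3'/5' covariate, Wee1 (0.047), Parp1 (0.21), and at equal score Rad54l (-0.0228) and Rpa2 (-0.15). Reversed slopes were Rad17 (-0.0629) and Xrcc5 (-0.33) without the 4 tumours of lowest score, Xrcc4 with the other probe set (-0.0478) or a score of replication genes (-0.0082), and Ercc1 with 1 tumour left out (-0.23 to 0.15). The causes were not tested. Of the values for single genes under alternatives, 647 kept direction and side of the threshold, 145 lost a call, 4 gained one and 13 reversed. Quantile normalization moved the share of higher calls among all genes in Cdkn2a knockout tumours from 52.5% to 45.5% and no median by over 0.1. Low signals limit what can be seen for genes near background.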
